A study of Mus musculus with 4 samples.

Results

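Lysosomes are the acidic compartments in which cells take apart glycans, proteins and lipids. Soluble hydrolases made in the endoplasmic reticulum reach them mostly through mannose 6-phosphate receptors, while membrane proteins line the organelle, and a proton pump keeps its interior acid. The transcription factor TFEB binds E-box sites upstream of many lysosomal genes, and its entry into the nucleus is set largely by phosphorylation. The 40 genes described here encode lysosomal glycosidases, sulfatases, proteases, lipid-handling proteins and membrane proteins, plus Tfeb itself. They were named with earlier results of these data known, so the counts and medians given for them are descriptions and no test of the list. All 40 had a probe set annotated to them alone, out of 18193 genes measured. Each gene was represented by its probe set with the highest mean over the arrays.

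The cells were K7M2, a metastatic mouse osteosarcoma line, over-expressing either GFP (1 array) or ezrinT567A-GFP (3 arrays, replicates 1 to 3), and both kinds grew in DMEM with fetal bovine serum. Ezrin ties membrane proteins to cortical actin, and T567A names a form whose regulatory threonine near the C-terminus is an alanine that takes no phosphate. The labels give no promoter for either construct. They also leave unsaid whether the replicates came from different cultures or clones, and the p-values therefore reflect array-to-array spread that may be technical. The comparison asks how expression differs between cells carrying ezrinT567A-GFP and cells carrying GFP alone. Values are log2 levels after RMA, a method that summarises the probes of a probe set and brings all arrays to nearly one distribution. A difference is the mean of the ezrinT567A-GFP arrays minus GFP, and SE is its moderated standard error from limma. One GFP array gives no spread of its own, so the fit takes its error from the 3 replicates, and the smallest p that an exact permutation of 4 arrays allows is 0.25.

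Array medians over all probe sets ran from 3.85 to 3.89 and lower quartiles from 2.55 to 2.62, and a level near that quartile is not shown to lie above background. The probe set that stood for Ezr differed by 0.01 and a further one by 0.33, and neither is known to read the transgene. The mean of the hybridization spike-ins was 9.32 on the GFP array and between 10.1 and 11.1 on the others, and its part in the results was not tested beyond the covariate fit given in the closing section. Control probe sets for 18S rRNA averaged 9.09 in GFP and 7.65, 11.35 and 7.76 in replicates 1 to 3. The part of that spread in the results was not tested. Of the osteoblast-lineage markers, Col1a1 lay between 11.2 and 11.4 and Col1a2 between 12.3 and 12.5, Sp7 between 5.05 and 5.41, while Ibsp and Dlx5 stayed between 2.34 and 2.88. Macrophage and osteoclast markers, which bear on genes such as Ctss and Ctsk, were mostly dim: Ptprc, Adgre1 and Itgam did not exceed 2.76 and Calcr 2.06 on any array. Csf1r was bright on every array (11.9 to 12.2), and Cd14 was 7.16 in GFP and 8.01 to 8.18 with ezrinT567A-GFP. Summed on the linear scale, the 10 macrophage markers came to 4096 in GFP and 4165 to 5161 with ezrinT567A-GFP, of which Csf1r alone made up 3851 and 3787 to 4767. The other 9 came to 245.3 and 360.6 to 394.4. Among these, Cd14 differed by 0.94 and the rest by -0.18 (Mpeg1) to 0.14 (Fcgr1). The 7 basal epithelial markers came to 359.9 in GFP and 77.9 to 104.0 with ezrinT567A-GFP. None of the markers was at 0, a value the scale does not reach, and their part in the lysosomal differences was not tested. In bulk RNA, fewer cells of a type and less RNA per cell cannot be told apart.

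Most of the lysosomal genes were higher with ezrinT567A-GFP. The difference was above 0 for 32 of the 40 genes, against 56.1% of all genes, and below 0 for 8, with a median of 0.39, where the median over all genes was 0.03. All 3 ezrinT567A-GFP arrays lay above GFP for 27 genes, against a background of 32.5% of all genes, and below GFP for 6 genes, against 25.6%. Array by array, the median of the 40 differences was 0.38 in replicate 1, 0.34 in replicate 2 and 0.29 in replicate 3. Among the 34 members whose mean level exceeded the median of all genes, 26 were above GFP on all 3 arrays and 3 below, where 37% and 29.6% of all genes of such brightness were. That mean counts the 3 ezrinT567A-GFP arrays, so the filter favours genes that are high on them. Fuca2, at 4.62 in GFP against a median of 5.04, passed it only through those arrays. The 6 dimmer members, Idua, Sgsh, Ctsc, Ctsh, Ctss and Gm2a, had a median difference of -0.09.

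No single gene passed the test. With limma, 0 of 40 members and 0 of 18193 genes (0%) had a Benjamini-Hochberg adjusted p under 0.05, and the lowest adjusted p among the members was 0.153, for Gla. At an unadjusted p under 0.05 there were 16 members higher, against 7.46% of all genes, and 2 lower, against 6.5%. At least 2-fold higher were Gla, Fuca2 and Neu1, against 0.973% of all genes, and no member was 2-fold lower (0.704% of all genes). The members varied little between the ezrinT567A-GFP arrays, with a median SD of 0.11 where that of all genes was 0.13. More than 1 probe set was present for 28 of the 40 genes, and for 12 of these the probe sets differed in sign. Of the 59 member probe sets brighter than the median gene, 48 were higher and 11 lower, several of them from the same gene. No share was computed over all probe sets of that brightness. With 1 probe set per gene, 4965 of all 9096 genes above that level were higher and 4129 lower.

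**Figure D1:**
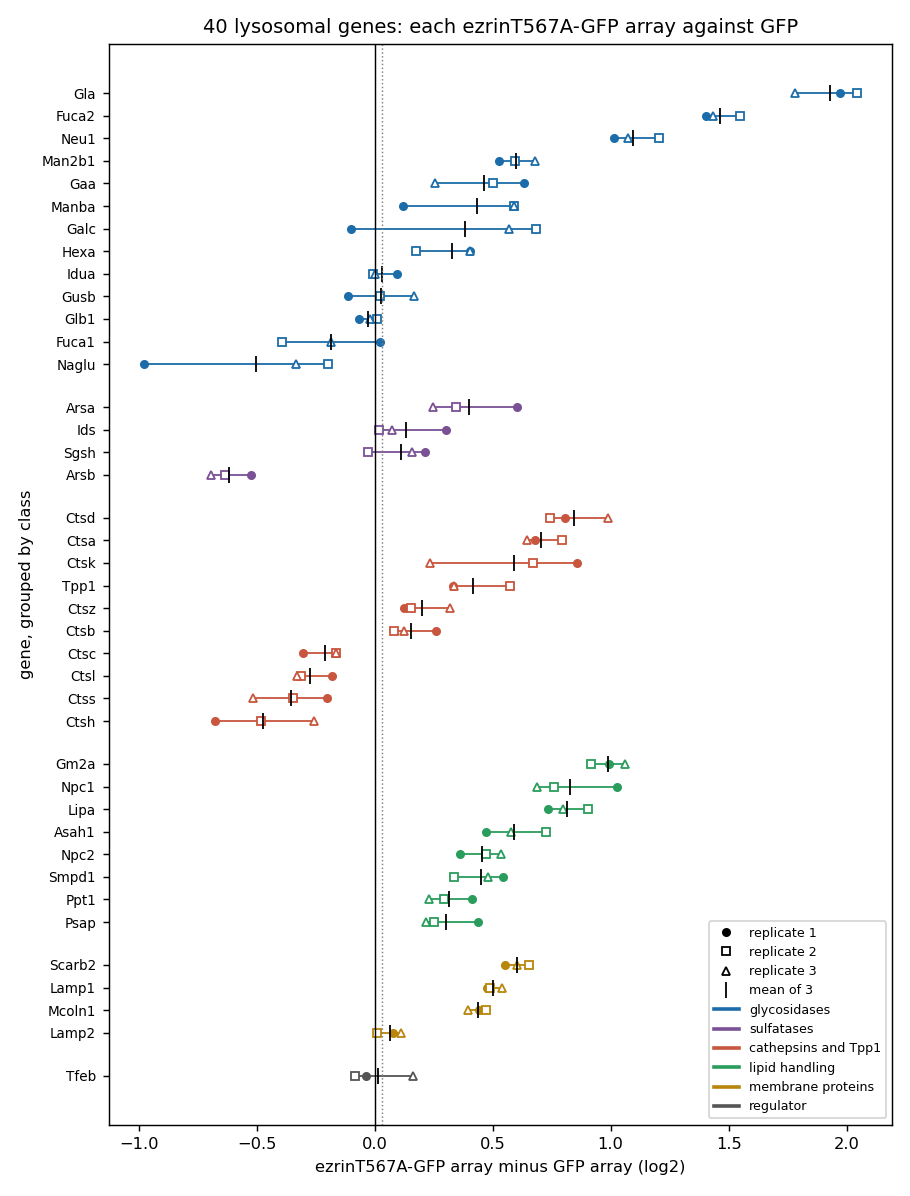
Difference of each ezrinT567A-GFP array from the GFP array (x axis, log2) for the 40 lysosomal genes (y axis, grouped by class), with circles, squares and triangles for replicates 1, 2 and 3, a bar for their mean, and a dotted line at the median of all genes (0.03). By the probe sets used, all 8 lipid-handling genes and all 4 membrane proteins lie right of 0 on every array. Of the proteases, 5 cathepsins and Tpp1 lie on the right and 4 cathepsins on the left.

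The promoter sequences give context for genes of one pathway that lay mostly on the same side. RefSeq promoter windows on GRCm38.p6 were found for 36 of the 40 genes, and the 250 bases before each start were searched on both strands. The E-box CACGTG, which reads the same on both strands, was present for 11 of the 36 genes (30.6%) and for 6.86% of the 27025 genes in the table. Its extended form GTCACGTG (CACGTGAC on the other strand), which contains the E-box and resembles the core of the site that TFEB is known to bind, was present for 9 of the 36 (25%) and for 2.11% of all genes. These 9 were Gla, Glb1, Naglu, Arsa, Sgsh, Ctsa, Ctsd, Lamp1 and Mcoln1. Of the 9, 6 lay above GFP on all 3 arrays, against 27 of all 40 members. Glb1 (-0.03), Naglu (-0.50) and Sgsh (0.11) did not. The median difference of the 9 was 0.44, that of the 27 members without the extended form 0.33, and that of all 453 array genes with it 0.05. The median over all array genes was 0.03, and the part of the motif in the differences was not tested. The windows that follow, 5′ to 3′ on the gene's strand with each E-box in capitals, are those of 5 of the 6 members that carry the extended form and lay above GFP on all 3 arrays, and that of Fuca2, which holds no E-box here although its difference was the second highest of the 40.
Gla, chrX:134601006-134601255, minus strand: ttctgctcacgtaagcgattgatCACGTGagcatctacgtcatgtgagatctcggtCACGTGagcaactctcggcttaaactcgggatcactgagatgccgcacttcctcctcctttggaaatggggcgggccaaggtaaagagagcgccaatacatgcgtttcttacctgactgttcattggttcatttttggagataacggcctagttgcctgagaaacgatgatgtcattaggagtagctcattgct
Ctsd, chr7:142387828-142388077, minus strand: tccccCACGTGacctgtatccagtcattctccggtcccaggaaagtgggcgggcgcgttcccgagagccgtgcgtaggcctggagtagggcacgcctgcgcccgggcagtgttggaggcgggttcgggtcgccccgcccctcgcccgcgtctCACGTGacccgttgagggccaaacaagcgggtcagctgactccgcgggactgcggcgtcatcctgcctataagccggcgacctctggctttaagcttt
Ctsa, chr2:164833523-164833772, plus strand: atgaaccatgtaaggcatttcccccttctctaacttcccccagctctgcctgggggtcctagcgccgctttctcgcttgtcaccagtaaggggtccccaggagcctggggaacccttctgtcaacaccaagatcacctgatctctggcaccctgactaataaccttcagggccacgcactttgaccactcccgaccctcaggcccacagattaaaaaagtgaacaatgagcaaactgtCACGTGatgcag
Lamp1, chr8:13158911-13159160, plus strand: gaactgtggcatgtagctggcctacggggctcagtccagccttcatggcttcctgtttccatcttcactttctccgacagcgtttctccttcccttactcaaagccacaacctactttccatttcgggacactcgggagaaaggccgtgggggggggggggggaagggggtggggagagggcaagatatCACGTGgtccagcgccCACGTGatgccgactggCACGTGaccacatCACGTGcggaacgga
Mcoln1, chr8:3500269-3500518, plus strand: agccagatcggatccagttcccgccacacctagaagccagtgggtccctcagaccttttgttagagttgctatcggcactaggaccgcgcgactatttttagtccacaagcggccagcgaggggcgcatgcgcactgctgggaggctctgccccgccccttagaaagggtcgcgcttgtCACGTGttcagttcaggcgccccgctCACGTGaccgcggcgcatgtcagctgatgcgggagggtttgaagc
Fuca2, chr10:13500778-13501027, plus strand: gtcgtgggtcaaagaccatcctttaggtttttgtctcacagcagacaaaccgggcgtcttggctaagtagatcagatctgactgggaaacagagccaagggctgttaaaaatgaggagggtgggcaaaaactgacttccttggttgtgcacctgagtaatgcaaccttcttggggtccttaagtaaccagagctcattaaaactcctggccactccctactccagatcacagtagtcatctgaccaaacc
Lamp1 holds 4 E-boxes within 61 bases of its start, Gla, Ctsd and Mcoln1 hold 2 each, and that of Ctsa lies 12 bases before the start of the window shown. A further Ctsa window, for another start, holds no E-box and is not shown. A match is only a run of letters, and no binding was measured.

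Glycosidases, which clip sugars from glycoproteins, glycolipids and glycosaminoglycans, spanned the widest range of the classes. Of 13 genes, 10 were higher and 3 lower, 7 of them higher on all 3 arrays, with a median of 0.38. Over all genes 56.1% were higher and 32.5% were higher on all 3 arrays. The class median was uneven between arrays: it was 0.12 for replicate 1, 0.50 for replicate 2 and 0.40 for replicate 3.

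Gla encodes alpha-galactosidase A, the enzyme deficient in Fabry disease, which removes the terminal galactose of globotriaosylceramide. Its brightest probe set read 6.24 in GFP and 8.21, 8.28 and 8.02 in the ezrinT567A-GFP replicates. The difference of 1.93 (SE 0.15, limma adjusted p = 0.153) is 3.81-fold, and the 3 arrays, with an SD of 0.14, all lay above GFP. Of its other probe sets, one read 3.998 in GFP and 5.53, 5.22 and 5.18, a difference of 1.31 (SE 0.20). The remaining one was dim, at 2.08 in GFP and 2.21 to 2.38 with ezrinT567A-GFP, a difference of 0.23. All 3 probe sets of Gla therefore had every ezrinT567A-GFP array above GFP. By size of difference Gla ranked 23 of all genes.

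Fuca2 encodes a secreted alpha-L-fucosidase, and its paralog Fuca1 the classic lysosomal enzyme that is lost in fucosidosis. The brightest probe set of Fuca2 read 4.62 in GFP and 6.02, 6.17 and 6.05 in replicates 1 to 3, a difference of 1.46 (SE 0.13, limma adjusted p = 0.179), or 2.76-fold. Its other probe sets did not show this. One read 4.75 in GFP and 4.95, 5.33 and 4.84, a difference of 0.29 (SE 0.24), and the last lay near background at 2.23 in GFP and 2.11 to 2.33, a difference of -0.04. The 2.76-fold value thus rests on 1 of the 3 probe sets. That probe set was the brightest by the mean over all arrays, while in GFP alone the one at 4.75 read higher. Fuca1 read 8.13 in GFP and 8.15, 7.74 and 7.94, a difference of -0.18 (SE 0.19) that did not exceed the spread of its arrays, and its 4 probe sets ranged from -0.19 to 0.29.

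Neu1, Ctsa and Glb1 encode the sialidase, the carboxypeptidase known as protective protein, and the beta-galactosidase that join in one lysosomal complex. Neu1 read 5.07 in GFP and 6.08, 6.27 and 6.14, a difference of 1.10 (SE 0.14, limma adjusted p = 0.187). Its other probe sets were dim and differed by 0.12 and 0.00, the latter at 2.30 on all 4 arrays. Ctsa read 8.24 in GFP and 8.92, 9.04 and 8.89, a difference of 0.71 (SE 0.11), while Glb1 read 7.49 in GFP and 7.43, 7.501 and 7.47. Within this complex, then, Neu1 and Ctsa lay above GFP on every array and Glb1 differed by -0.03 (SE 0.11).

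The other glycosidases spanned the range from -0.50 to 0.60. Man2b1, the lysosomal alpha-mannosidase, was higher by 0.60 (SE 0.12, unadjusted p = 0.00681, limma), and Gaa, which degrades glycogen, by 0.46 (SE 0.19). Hexa, the alpha subunit of the hexosaminidase lost in Tay-Sachs disease, read 9.06 in GFP and 9.46, 9.23 and 9.46. Manba, the beta-mannosidase, was higher by 0.43 (SE 0.24), with replicate 1 only 0.12 above GFP. Gusb, the beta-glucuronidase, read 8.02 in GFP and 7.90, 8.04 and 8.18, so GFP fell inside the range of the other arrays. Idua, which acts on dermatan and heparan sulfate, differed by 0.03 (SE 0.12). Galc, the galactocerebrosidase, differed by 0.38 (SE 0.35) in its brightest probe set, where replicate 1 lay 0.10 under GFP and the others 0.68 and 0.57 above it. A further Galc probe set read 4.76 in GFP and 5.87, 6.02 and 5.85, a difference of 1.15 (SE 0.14), so the choice of probe set decides the size for this gene. Naglu, which works on heparan sulfate, was the lowest glycosidase at -0.50 (SE 0.35), with replicate 1 0.98 below GFP and the others 0.20 and 0.33 below it.

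**Figure D2:**
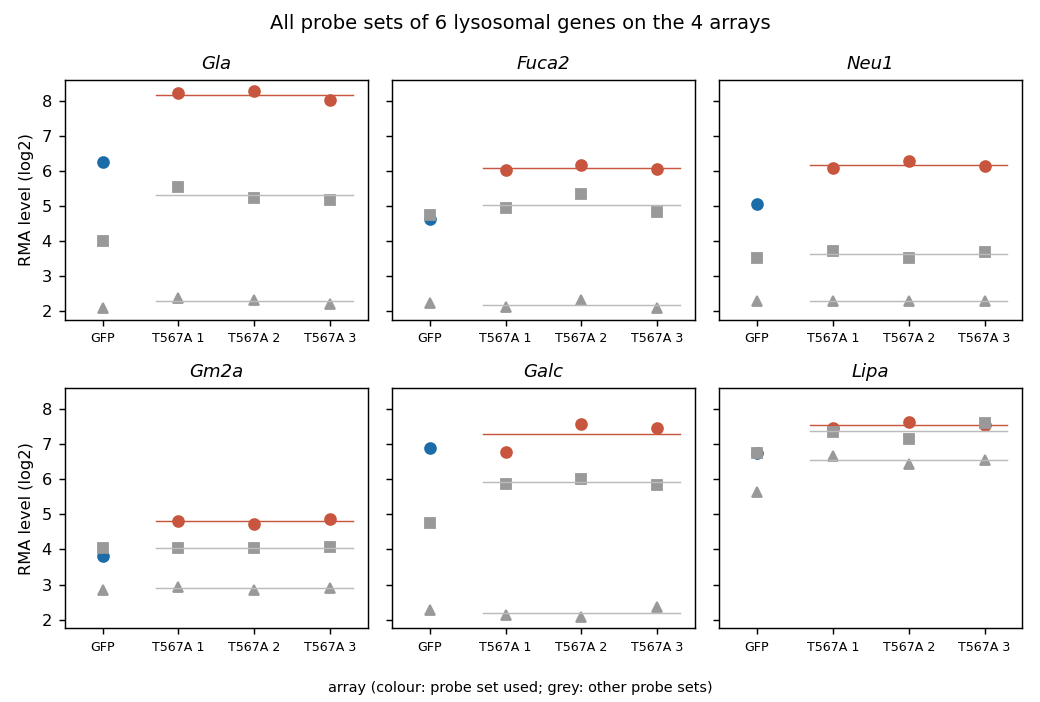
RMA level (y axis, log2) of every probe set of Gla, Fuca2, Neu1, Gm2a, Galc and Lipa on the GFP array and the 3 ezrinT567A-GFP arrays (x axis, T567A 1 to 3). Coloured points are the probe set used (blue GFP, red ezrinT567A-GFP), grey points are the others, and horizontal lines are means over the 3 arrays. Gla and Lipa have every ezrinT567A-GFP array above GFP in all 3 probe sets, while Fuca2, Neu1 and Gm2a have a large difference in 1 probe set.

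Sulfatases, which remove sulfate from glycosaminoglycans and sulfatides, split. Arsb, the sulfatase of dermatan and chondroitin sulfate, read 8.38 in GFP and 7.85, 7.75 and 7.69, a difference of -0.62 (SE 0.12, unadjusted p = 0.00672, limma adjusted p = 0.234). It was the lowest of the 40 genes, with every ezrinT567A-GFP array below GFP, though its dimmer probe sets gave -0.34 and 0.08. Arsa, which desulfates sulfatide, read 8.28 in GFP and 8.88, 8.62 and 8.52, a difference of 0.40 (SE 0.18). Ids, the iduronate sulfatase, read 8.16 in GFP and 8.46, 8.18 and 8.23, and Sgsh, the heparan sulfamidase, differed by 0.11 (SE 0.15). The class median was 0.12, and Sumf1, which activates all sulfatases and is not among the 40, differed by 0.03 (SE 0.15).

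By the probe sets used, the cathepsins and the tripeptidyl peptidase Tpp1 fell into a higher and a lower part with none between. All 3 arrays lay above GFP for 6 of the 10 genes and below GFP for 4, and the class median was 0.18. Over all genes the shares were 32.5% above and 25.6% below. Ctsd, the main aspartic protease of lysosomes, read 9.04 in GFP and 9.85, 9.78 and 10.02, a difference of 0.85 (SE 0.13, limma adjusted p = 0.209). Tpp1, a serine protease lost in a form of Batten disease, read 9.56 in GFP and 9.89, 10.1 and 9.90, a difference of 0.42 (SE 0.14). Ctsk, the collagen-cleaving cathepsin best known from osteoclasts, was higher by 0.59 (SE 0.28), and its arrays were uneven at 0.86, 0.67 and 0.23 above GFP. Ctsz, a carboxypeptidase, read 10.6 in GFP and 10.7, 10.7 and 10.9, and the cysteine protease Ctsb differed by 0.15 (SE 0.11). A further Ctsb probe set, almost as bright, read 10.37 in GFP and 10.59, 10.36 and 10.36, a difference of 0.06.

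Ctsl, an abundant cysteine protease in fibroblast-like cells, was on the lower side, at 11.7 in GFP and 11.5, 11.4 and 11.3, a difference of -0.27 (SE 0.09, unadjusted p = 0.0411, limma adjusted p = 0.338). The remaining lower cathepsins were Ctsh (-0.47), Ctss (-0.35) and Ctsc (-0.21), whose mean levels of 3.296, 2.90 and 2.22 lie where expression above background is not shown. Ctss and Ctsc are proteases typical of immune cells. Without genes at or below the median level, the remaining 7 of the class had a median of 0.42. That filter takes out Ctsh, Ctss and Ctsc and leaves Ctsl as the only lower member.

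By the probe sets used, lipid handling lay on one side only. All 8 genes were higher on all 3 arrays, with differences between 0.30 and 0.99 and a median of 0.52, and 6 of them had an unadjusted p under 0.05. Over all genes 32.5% were higher on all 3 arrays and 7.46% were higher at that p. The array medians were 0.51, 0.60 and 0.56 in replicates 1 to 3. Gm2a, the activator that presents ganglioside GM2 to hexosaminidase, read 3.81 in GFP and 4.805, 4.73 and 4.87, a difference of 0.99 (SE 0.12, limma adjusted p = 0.187). Its other probe sets differed by 0.01 and 0.04, so this value too rests on 1 of 3 probe sets and on a level below the median of all genes. In GFP alone the probe set that differed by 0.01 read higher, at 4.04. The one used was thus the brightest only through the ezrinT567A-GFP arrays.

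The 3 proteins that release and export lysosomal cholesterol lay above GFP on every array. Lipa, the acid lipase that hydrolyses cholesteryl esters, read 6.74 in GFP and 7.47, 7.64 and 7.54, a difference of 0.81 (SE 0.13, limma adjusted p = 0.209). Its other probe sets gave 0.62 and 0.91, the same side on every array. Npc2, which hands cholesterol on inside the lumen, read 11.02 in GFP and 11.4, 11.5 and 11.6, a difference of 0.46 (SE 0.10). Npc1, the membrane protein that exports it, read 5.10 in GFP and 6.13, 5.86 and 5.79, a difference of 0.83 (SE 0.18).

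The remaining genes of the class act in sphingolipid breakdown or on acylated proteins. Asah1, the acid ceramidase, was higher by 0.59 (SE 0.14) and Smpd1, the acid sphingomyelinase, by 0.45 (SE 0.14). Psap, the precursor of the saposins, read 10.4 in GFP and 10.8, 10.7 and 10.6, a difference of 0.30 (SE 0.12). A second Psap probe set, almost as bright, gave 0.07, with replicate 3 at 10.15 against 10.31 in GFP. Ppt1, which removes fatty acids from proteins, was higher by 0.31 (SE 0.13), and its 5 probe sets ranged from -0.02 to 0.31. The next brightest of these read 6.99 in GFP and 7.18, 6.98 and 6.88 in replicates 1 to 3.

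Of the membrane proteins, Lamp1, Scarb2 and Mcoln1 differed by like amounts and Lamp2 by little. Lamp1, a major glycoprotein of the lysosomal membrane, read 10.8 in GFP and 11.3, 11.3 and 11.4, a difference of 0.50 (SE 0.08, unadjusted p = 0.00241, limma adjusted p = 0.204). Scarb2, the receptor that carries glucocerebrosidase to lysosomes, read 7.79 in GFP and 8.35, 8.45 and 8.40, a difference of 0.60 (SE 0.11). Mcoln1, a calcium channel of the lysosomal membrane, read 6.45 in GFP and 6.89, 6.92 and 6.84, a difference of 0.44 (SE 0.12). For each of the 3 all ezrinT567A-GFP arrays lay above GFP, with SDs between 0.03 and 0.05.

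Lamp2, whose splice forms serve chaperone-mediated autophagy and vesicle fusion, read 9.56 in GFP and 9.64, 9.57 and 9.67, a difference of 0.07 (SE 0.10). Its other 3 probe sets gave -0.06, -0.34 and -0.52, so the direction for Lamp2 depends on the probe set. Tfeb, the regulator, read 5.54 in GFP and 5.503, 5.46 and 5.70, and its difference of 0.01 (SE 0.15) lay within the spread of the arrays. An array of RNA levels shows neither the phosphorylation of TFEB nor where in the cell it is.

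**Figure D3:**
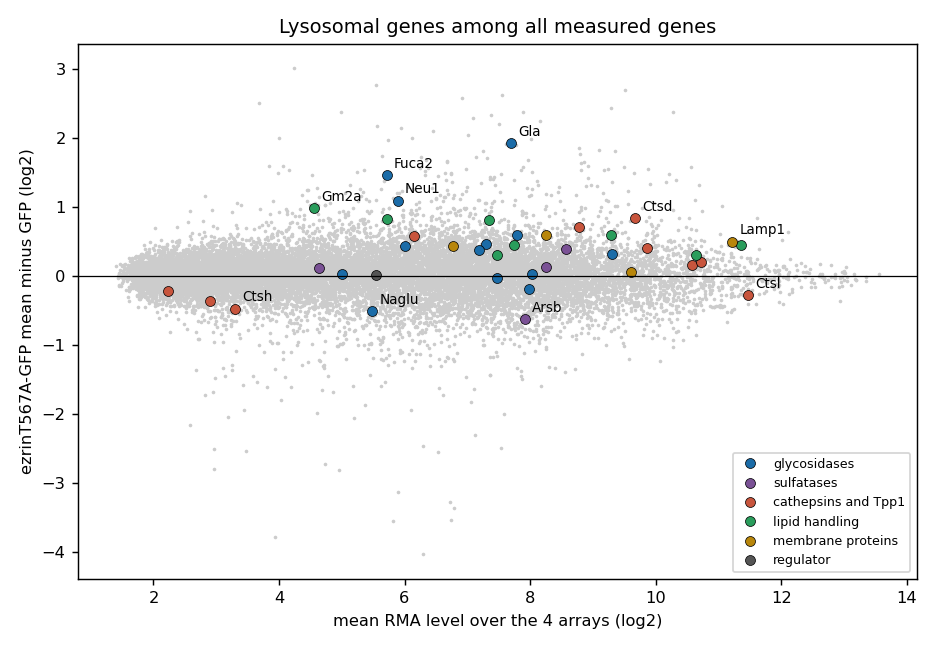
Mean RMA level over the 4 arrays (x axis, log2) against the ezrinT567A-GFP mean minus GFP (y axis, log2), with all 18193 genes in grey and the 40 lysosomal genes coloured by class. The lysosomal genes gather above 0 at medium and high levels (median 0.39), and Gla, Fuca2 and Neu1 stand highest among them.

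Lysosomal genes beyond the 40 were read from 4 further lists. Of 72 genes listed, 64 had a probe set of their own, and 49 were higher and 15 lower, with 37 above GFP on all 3 arrays and a median of 0.17, where 56.1% of all genes were higher and 32.5% above GFP on all 3 arrays. None passed limma's test over all genes (lowest adjusted p = 0.187). An unadjusted p under 0.05 was found for 18 higher and 0 lower genes, where all genes gave 7.46% and 6.5%.

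Subunits of the V-ATPase, the proton pump that acidifies lysosomes, were higher in 15 of 17 genes, with a median of 0.23. Atp6v0d1, a stalk subunit of the pump, read 8.86 in GFP and 9.68, 9.64 and 9.62, a difference of 0.79 (SE 0.09). Atp6v0a1, a subunit of the proton path, was higher by 0.84 (SE 0.14) and its relative Tcirg1 by 0.46 (SE 0.11). Among further lysosomal enzymes and proteins 19 of 21 were higher, with a median of 0.31. Dpp7, a dipeptidyl peptidase, read 6.06 in GFP and 7.15, 7.48 and 7.25, and Ctso, another cathepsin, 5.09 in GFP and 6.12, 6.68 and 6.36. Grn, the precursor of granulins, was higher by 0.72 (SE 0.09).

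The genes that sort enzymes to lysosomes had a median of 0.17, with 10 of 12 higher. Igf2r, the large mannose 6-phosphate receptor, was higher by 0.47 (SE 0.14), and the retromer subunits Vps29 and Vps35 by 0.22 (SE 0.08) and 0.17 (SE 0.08). The last list, of TFEB relatives and nutrient sensors on the lysosomal surface, was not on the higher side, with 5 of 14 higher and a median of -0.07. In it Lamtor4 and Lamtor5, parts of the Ragulator complex that anchors mTORC1, were higher by 0.67 (SE 0.12) and 0.34 (SE 0.12). Tfec, a relative of Tfeb, differed by -0.25 (SE 0.10) at levels of 1.91 to 2.23, near background. The brighter relatives Mitf and Tfe3, at 6.28 and 7.23 in GFP, differed by -0.22 (SE 0.13) and -0.10 (SE 0.12). Both lay below GFP on all 3 arrays.

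**Figure D4:**
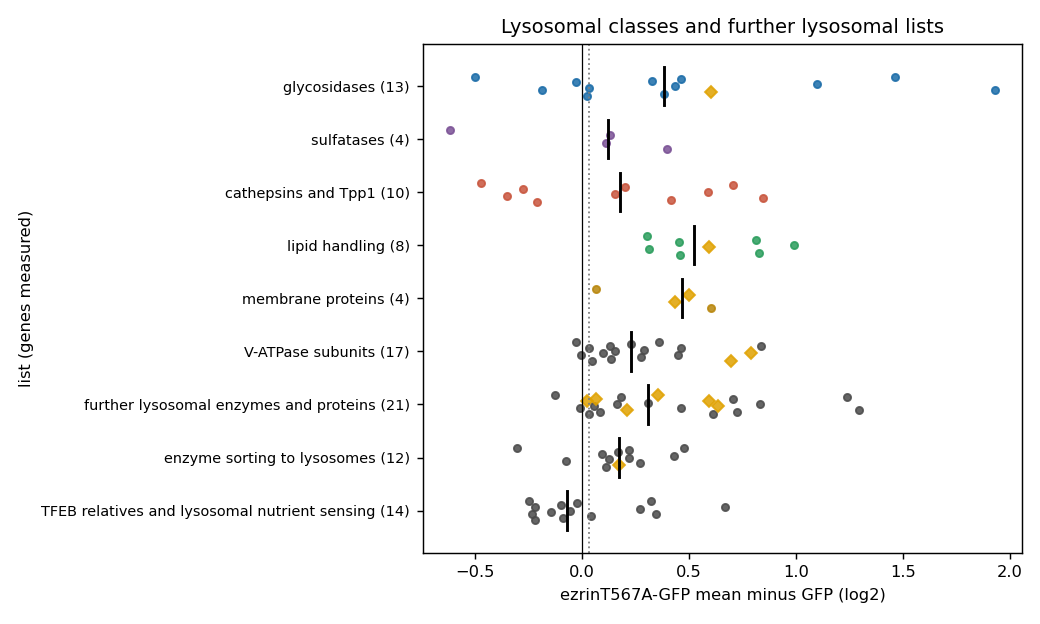
Difference of ezrinT567A-GFP from GFP (x axis, log2) for each gene of 5 classes of the 40 lysosomal genes and of 4 further lysosomal lists (y axis, number of genes measured in brackets). Bars are medians, yellow diamonds genes of chromosome 8, and the dotted line the median of all genes. Lipid handling and membrane proteins have medians of 0.52 and 0.47, and the TFEB relatives and nutrient sensors one of -0.07.

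Gene position moved with part of this. Genes of chromosome 8 above the median level had a median difference of 0.24, and 66.7% of them lay above GFP on all 3 arrays. The 4 members on chromosome 8, Man2b1, Asah1, Lamp1 and Mcoln1, had differences from 0.44 to 0.60, all above that median. The 36 members on other chromosomes had a median of 0.32, with 28 higher and 23 above GFP on all 3 arrays. The part of gene position in the differences was not tested. Of the further lists, 9 genes lie on chromosome 8, Atp6v0d1 among them, with a median of 0.35, and the other 55 had a median of 0.15. Chromosome 18, which carries Npc1, had a median of 0.21 among genes above the median level, with 55% of them above GFP on all 3 arrays. On chromosome 2, with Ctsa and Ctsz, and chromosome 11, with Gaa, Naglu, Sgsh and Gm2a, that median was 0.11. Gla lies on the X chromosome, whose genes above the median level had a median of -0.14, and Neu1 on chromosome 17, where it was -0.13. Both members lower at an unadjusted p under 0.05, Arsb and Ctsl, lie on chromosome 13, where the median was 0.01.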

How the data were processed

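Per the submitters' processing notes, the authors summarised the one-colour Affymetrix arrays with RMA. The deposited values are log2 levels of 45101 probe sets, a scale read from their range of 1.18 to 13.7. The software that ran it is not given in the sources used here. Whether cells held more or less RNA overall cannot be read after this step. Signal over background was not analysed here.

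The platform annotation named the probe sets, and 34945 with 1 symbol and no control role were used. Symbols and chromosomes were set against a RefSeq table of GRCm38.p6. Each gene took its probe set with the highest mean over the 4 arrays, without a filter on dim genes. Since 3 of these are ezrinT567A-GFP arrays, the choice favours probe sets that are high on them. The fit used limma 3.58.1 under R 4.3.3 over all 18193 genes (mean trend, 2 residual degrees of freedom, prior 2.23), two-sided, adjusted after Benjamini and Hochberg.

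The members, classes and lists were chosen with earlier results of these data known, so no list was tested. Full values are given for Gla, Fuca2, Tfeb, Lamp1 and Lamp2, and for the 3 genes per class with the smallest p and the 2 with the highest mean. Up to 3 genes per further list with the smallest p have array values or only a difference with its SE. Other members, and Sumf1, Mitf and Tfe3 of the further lists, were added after their values were seen. Medians are descriptions. The fit was tested on simulated data. Alternatives were other normalizations, probe set rules, a filter on dim genes, other priors, a spike-in covariate and leaving out each replicate. Plots were made in Python 3.11.15 (matplotlib 3.10.9).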

Additional observations from a re-analysis of the deposited data

How the results depend on the processing

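With 1 GFP array, its own error cannot be separated from the group, and dim probe sets limit what can be said of Ctsc, Ctsh, Ctss, Sgsh, Idua and Gm2a. No paired analysis was possible because GFP has a single array with no replicate number. The count of 0 members past the threshold became 2 (Gla and Fuca2) after quantile normalization and 1 (Gla) after centring the arrays on their medians, when limma called 61 and 26 of all genes. The other 9 alternatives gave 0 members. For the further lists all alternatives gave 0. The spike-in covariate fit and those leaving out a replicate had fewer residual degrees of freedom than the main fit. A count of 0 says little there. The median of the 40 genes, 0.39, was 0.34 after centring, 0.29 with plain _at probe sets (33 genes) and 0.34 to 0.35 leaving out a replicate. Class medians stayed above 0 throughout. Centring gave 0.13 for cathepsins and Tpp1, 0.48 for lipid handling and 0.42 for membrane proteins, and quantile normalization 0.46 for membrane proteins. Averaging a gene's probe sets gave 0.47 for lipid handling and 0.42 for membrane proteins, and plain _at probe sets 0.61 and 0.24. Without dim genes cathepsins and Tpp1 came to 0.42 and lipid handling to 0.46, fewer genes being counted. The spike-in covariate gave 0.42 for sulfatases and 0.44 for membrane proteins. Leaving out a replicate gave 0.29 to 0.38 for glycosidases, 0.06 to 0.19 for sulfatases, 0.15 to 0.21 for cathepsins and Tpp1, 0.52 to 0.58 for lipid handling and 0.46 to 0.47 for membrane proteins. The sulfatase median was 0.06 without replicate 1. Of the 40 single genes, 31 kept their sign under every alternative that could be run. The sign turned for Fuca1 (0.074 with the mean of probe sets, 0.29 with the spike-in covariate), Galc (-0.42) and Manba (-0.017) with that covariate, Gusb (-0.023 after centring, -0.046 with the mean of probe sets, -0.053 with the covariate, -0.046 to 0.095 leaving out a replicate, negative without replicate 3), Idua (-0.013 after quantile normalization, -0.017 after centring, -0.0027 to 0.048 leaving out a replicate, negative without replicate 1), Ctsb (-0.015) and Lamp2 (-0.21) with the mean of probe sets, Ctsl (0.16) with plain _at probe sets, and Tfeb (-0.034 after quantile normalization, -0.034 after centring, -0.060 to 0.062 leaving out a replicate, negative without replicate 3). Beyond the choice of genes or probe sets, the cause was not tested.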
